A study of Mus musculus with 10 samples.

Results

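Kidneys of wild-type mice of the strains DBA_2J and 129S2_SvPasCrl were compared with kidneys of wild-type C57BL/6N mice across 16361 genes, and the genes at which both strains stood apart from C57BL/6N were separated from the genes at which the strains differed from each other. Members were chosen by the strain and genotype labels: 6 of the 10 libraries of the series, of which 1 is from a DBA_2J animal, 1 from a 129S2_SvPasCrl animal and 4 are from C57BL/6N animals. All 6 animals carry the wild-type genotype at Ehhadh, the gene studied in the series, and no treatment is given for any of them. The 4 libraries of animals that lack Ehhadh were left out. The C57BL/6N libraries are called WT (WT 1 to WT 4), and the strains are called by the names in the labels. The design text describes the kidneys as adult and gives male animals for the 4 C57BL/6N animals per genotype. Age, feeding, time of day and origin of the 2 strain animals are not in the labels, and with 1 animal per strain such differences between animals cannot be told apart from strain.

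C57BL/6, DBA/2 and 129 are inbred strains that parted long ago and differ at very many sites of the genome, including deletions and copy number changes that remove or add whole genes. DBA/2 carries the d haplotype of the major histocompatibility complex (MHC), while C57BL/6 carries the b haplotype and 129 a closely related one. The kidney burns fatty acids in the mitochondria and peroxisomes of its proximal tubule, and in mice many genes of this segment also respond to androgens. Fatty acid genes are switched on by the nuclear receptor PPARα, which is activated by fatty acids and in fasting. The reads were counted on the mm10 genome, which is that of C57BL/6J, so a low count in another strain can come from less RNA, from a missing gene or from sequence that aligns poorly, and these cannot be told apart here.

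The first question was how far the strains stood from C57BL/6N across all genes. Values are CPM (counts per mega count, scaled by the trimmed mean of M-values, TMM), and log2 differences were taken on log2 CPM with a prior count of 2. When the DBA_2J and 129S2_SvPasCrl libraries were treated as a pair (n = 2) against WT (n = 4), the only comparison here with replicates on both sides, 3355 genes (20.5%) were called in edgeR's quasi-likelihood test at an adjusted p under 0.05. Of these, 1896 (11.6%) were higher and 1459 (8.92%) lower in the pair, and 983 differed by at least 1 on the log2 scale. The count fell to 1849 without WT 1, 2130 without WT 2 and 1826 without WT 3. In the single strains no test was possible without borrowing the spread of WT, so a gene was counted by size: at least 1 on the log2 scale (2-fold) from the WT mean, beyond all 4 WT libraries, and at least 1 CPM on the higher side. By this rule DBA_2J had 1553 genes (9.49%), 716 higher (4.38%) and 837 lower (5.12%). The 129S2_SvPasCrl library had 1127 genes (6.89%), 532 higher (3.25%) and 595 lower (3.64%). Both strain comparisons use the same 4 WT libraries.

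In 614 genes (3.75%) both strains were past the rule in the same direction, 280 higher (1.71%) and 334 lower (2.04%). Of these 614 genes, 562 were also called in the pair test. The rule and the test use the same libraries, so this overlap is largely built in and is no separate support. DBA_2J stood apart from both WT and 129S2_SvPasCrl in 189 genes that were higher (1.16%) and 185 that were lower (1.13%). The library of 129S2_SvPasCrl stood apart in 123 higher (0.752%) and 117 lower genes (0.715%). In 29 genes (0.177%) the strains lay on opposite sides of WT, and in 780 (4.77%) 1 strain was past the rule while the strains lay within 2-fold of each other. Directly compared, DBA_2J and 129S2_SvPasCrl differed by 2-fold or more in 911 genes (5.57%), with DBA_2J higher in 424 (2.59%) and lower in 487 (2.98%). The rule has a hard edge: Bex4, at −1.01 in 129S2_SvPasCrl, was just inside the shared class, and Smarca2, at 1.11 in DBA_2J and just short of 1 in 129S2_SvPasCrl, just outside it. For scale, the 4 WT libraries themselves spanned 1 or more on the log2 scale in 665 of 13726 genes (4.84%) with a WT mean of at least 1 CPM.

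**Figure D1:**
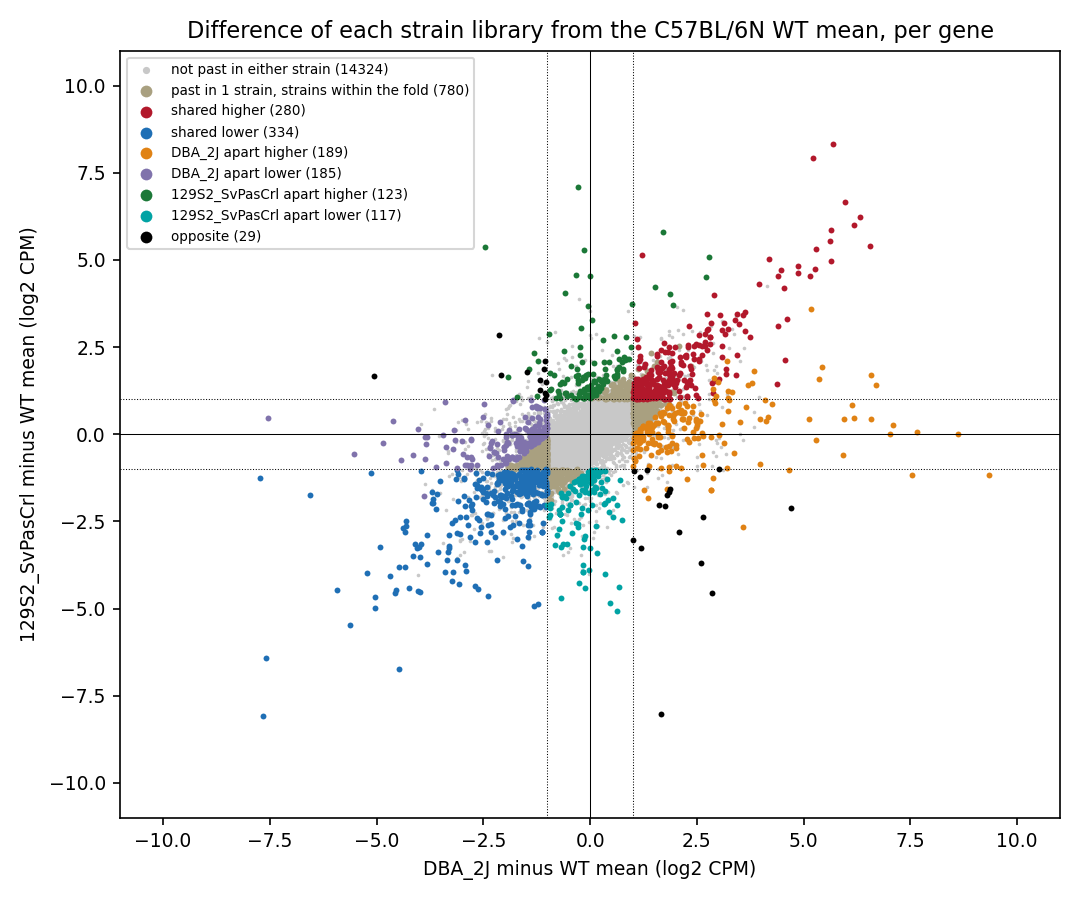
Each point is 1 of 16361 genes, with the log2 CPM difference of DBA_2J from the WT mean on the horizontal axis and that of 129S2_SvPasCrl on the vertical axis. Dotted lines mark a log2 difference of 1, and colours mark the classes with their gene counts, from 334 shared lower genes at the lower left to 280 shared higher genes at the upper right. The 2 axes share the WT mean, so part of the diagonal shape is built in.

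Total gene counts were 19.79 to 35.99 M (mega) in WT, 57.25 M in DBA_2J and 51.19 M in 129S2_SvPasCrl, so 1 CPM stood for 19.9 to 36.9 counts in WT and for 54.3 and 51.3 counts in the strains. After thinning all libraries to the smallest total, 610 genes were past the rule in both strains. Every pair of WT libraries differed by more than sampling noise (their chi-square over its degrees of freedom was 11.5 to 33.1). The first principal component (52.1% of the variance) placed WT at −35.3 to −27.6, DBA_2J at 75.1 and 129S2_SvPasCrl at 48.4, and the second (18.9%) parted DBA_2J (38.9) from 129S2_SvPasCrl (−51.9) with WT between them. As a check of sex, the Y-linked gene Ddx3y read 51.3, 50.3, 48.8 and 50.6 CPM in WT, 61.9 CPM in DBA_2J and 46.5 CPM in 129S2_SvPasCrl, and Xist, the RNA of the inactive X, was under 1 CPM in each library. The 30 proximal tubule markers summed to 34810 to 36912 CPM in WT, 34453 CPM in DBA_2J and 36686 CPM in 129S2_SvPasCrl, with medians of 0.32 in DBA_2J and 0.22 in 129S2_SvPasCrl on the log2 scale.

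Of the 334 shared lower genes, 26 were fatty acid genes of the lists described next, and the Fabp1 promoter is shown because it is the one promoter found among them that holds a close match to the element PPARα binds. The element was searched as AGGNCANAGGNCA, a pair of half-sites spaced by 1 base, on both strands of the 250 bases before to 50 after each RefSeq start. It was found in 125 of 32851 windows (0.381%) and in 1 of the 19 shared lower fatty acid genes that have a window (of the 26). The half-site AGGTCA alone was in 6 of the 19 and in 16.3% of all windows. The 250 bases before the start are given on the plus strand of RefSeq's GRCm38.p6, chr6:71199629-71199878, with the match in capitals, which begins 67 bases before the start and reads the element on the opposite strand.
Fabp1 promoter: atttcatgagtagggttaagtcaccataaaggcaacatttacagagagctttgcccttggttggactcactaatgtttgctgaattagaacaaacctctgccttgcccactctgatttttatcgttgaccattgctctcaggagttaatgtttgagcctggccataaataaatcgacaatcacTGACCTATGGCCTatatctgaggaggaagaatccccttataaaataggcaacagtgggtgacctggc
A match in letters is a description of this reference sequence, and the strains' own sequences were not analysed here.

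Genes of fatty acid oxidation read lower in both strains, including Ehhadh itself, whose enzyme carries out the middle steps of peroxisomal β-oxidation. Ehhadh (chr16:21761285-21787834, mm10, minus strand) read 3366, 2187, 2056 and 2152 CPM in WT, 795 CPM in DBA_2J and 776 CPM in 129S2_SvPasCrl, with no overlap of the groups. The pair differed from WT by −1.63 ± 0.21 (SE, edgeR adjusted p = 0.00269) on the log2 scale. Acaa1b, the thiolase of the last step, read 1817, 1344, 1256 and 1240.0 CPM in WT, 247 CPM in DBA_2J and 442 CPM in 129S2_SvPasCrl, and its log2 fold change was −2.04 ± 0.27 (SE, edgeR adjusted p = 0.00275). Acsl1, which activates long-chain fatty acids, was 4.55-fold lower in DBA_2J and 3.86-fold lower in 129S2_SvPasCrl than the WT mean of 453 ± 111 CPM (SD, n = 4). Decr2, which handles unsaturated acids in the peroxisome, was 2.33-fold and 3.20-fold lower in the same order, from 139.8 ± 6.94 CPM (SD, n = 4). Across the 30 tested genes of peroxisomal β-oxidation, 14 fell in the pair test and 8 were past the rule downwards in both strains, beside 8.92% and 2.04% of all genes. The 3 members that rose are near the background of 11.6%, and 1 rose without WT 1. The median log2 difference was −0.49 in DBA_2J and −0.66 in 129S2_SvPasCrl, beside −0.003 and 0.004 over all genes. Other members did not pass the test: Slc27a2, an acyl-CoA synthetase and fatty acid transporter, read 5911 CPM in DBA_2J, 4217 CPM in 129S2_SvPasCrl and 4861 to 5377 CPM in WT. Scp2, the sterol carrier thiolase, read 933 CPM in DBA_2J, 768 CPM in 129S2_SvPasCrl and 817 to 871 CPM in WT. Pecr, a peroxisomal reductase, rose by 0.69 ± 0.10 (SE, edgeR adjusted p = 0.00344) on the log2 scale in the pair.

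Several targets of PPARα stood very far from WT. Cyp4a14, which hydroxylates the end carbon of fatty acids, read 2373, 1166, 1651 and 1548 CPM in WT, 8.03 CPM in DBA_2J and 5.94 CPM in 129S2_SvPasCrl. That is 209.8-fold and 284-fold under the WT mean, and the pair's log2 fold change was −7.91 ± 0.39 (SE, edgeR adjusted p = 4.74e-05). The strain libraries lay close to each other and far from all WT libraries. Cyp4a10, a close relative of Cyp4a14, read 2166, 1447, 1811 and 1888 CPM in WT, 75.5 CPM in DBA_2J and 77.2 CPM in 129S2_SvPasCrl. Pdk4, which holds pyruvate back from oxidation, read 488, 277, 223 and 425 CPM in WT, 14.3 CPM in DBA_2J and 15.2 CPM in 129S2_SvPasCrl. Their log2 fold changes were −4.58 ± 0.19 (SE, edgeR adjusted p = 2.09e-05) and −4.58 ± 0.37 (SE, edgeR adjusted p = 0.000392). The lipid droplet coat gene Plin2 read 575, 305, 344 and 259 CPM in WT, 15.9 CPM in DBA_2J and 24.9 CPM in 129S2_SvPasCrl. Angptl4, a secreted inhibitor of lipoprotein lipase, read 313, 304, 205 and 372 CPM in WT, 14.4 CPM in DBA_2J and 41.9 CPM in 129S2_SvPasCrl, and 129S2_SvPasCrl lay nearer to WT than DBA_2J did. Creb3l3, a transcription factor of lipid metabolism, read 6.59, 4.81, 8.22 and 12.8 CPM in WT, 0.0737 CPM in DBA_2J and 0.292 CPM in 129S2_SvPasCrl. In the pair, its log2 fold change was −5.46 ± 0.62 (SE, edgeR adjusted p = 0.00174). Fabp1, a fatty acid carrier, read 8.80, 5.77, 8.09 and 10.7 CPM in WT, 0.921 CPM in DBA_2J and 0.370 CPM in 129S2_SvPasCrl, so the gene whose promoter is shown above was at a low level in all libraries and lower in the strains. The thioesterase Acot1 was 6.35-fold and 5.30-fold lower in DBA_2J and 129S2_SvPasCrl, and the pantetheinase Vnn1 7.63-fold and 4.23-fold.

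Of the 28 tested PPARα targets, 23 fell and 1, the fatty acid receptor Cd36, rose in the pair test, and 18 were past the rule downwards in both strains. Of all genes, 8.92% fell in the pair test and 2.04% were past the rule downwards in both strains. With 1 library left out the list had 20 to 24 lower calls, and the call of Cd36 was lost without DBA_2J (adjusted p = 0.0529 in edgeR). The median log2 difference was −1.85 in DBA_2J and −1.79 in 129S2_SvPasCrl. The mitochondrial members lay closer to WT: Cpt1a, the gate of mitochondrial fatty acid import, read 514 CPM in DBA_2J, 571 CPM in 129S2_SvPasCrl and 681 to 769 CPM in WT. Acadm, the medium-chain dehydrogenase, read 1024 CPM in DBA_2J, 1603 CPM in 129S2_SvPasCrl and 946 to 1172 CPM in WT. Ppara itself read 246, 225, 196 and 169 CPM in WT, 131 CPM in DBA_2J and 165 CPM in 129S2_SvPasCrl, both strains under the lowest WT library, and did not pass the test, with a log2 fold change of −0.50 ± 0.17 (SE, edgeR adjusted p = 0.0691).

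**Figure D2:**
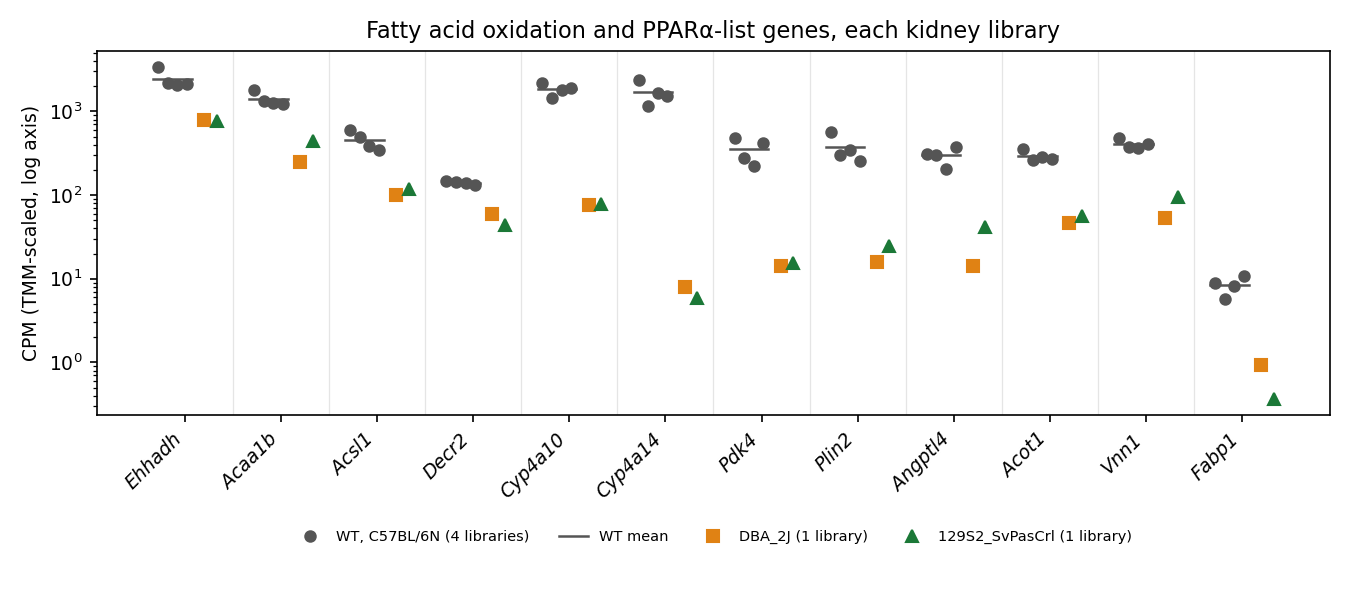
CPM on a log axis in each library for 12 genes of fatty acid oxidation or the PPARα list, with the 4 WT libraries as circles, their mean as a line, DBA_2J as a square and 129S2_SvPasCrl as a triangle. For all 12 genes both strain libraries lie under the lowest WT library, from Decr2 (2.33-fold and 3.20-fold under the WT mean in DBA_2J and 129S2_SvPasCrl) and Ehhadh (3.07-fold and 3.14-fold) to Cyp4a14 (209.8-fold and 284-fold).

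Adipocyte markers read lower in both strains, as these lipid genes did, and varied among the WT libraries. The summed level of the 8 markers was 47.5 to 192 CPM in WT, 47.1 CPM in DBA_2J and 51.3 CPM in 129S2_SvPasCrl. Adiponectin (Adipoq) read 8.10, 3.06, 6.59 and 15.3 CPM in WT, 2.12 CPM in DBA_2J and 2.20 CPM in 129S2_SvPasCrl. The droplet protein Cidec read 22.2, 7.02, 9.14 and 28.9 CPM in WT, 2.06 CPM in DBA_2J and 3.51 CPM in 129S2_SvPasCrl. Of the 8 markers, 6 were past the rule downwards in both strains, and 5 fell in the pair test (of all genes 2.04% and 8.92%). These calls depended on single libraries: 0 of the 8 passed without WT 1, 3 without WT 3, 1 without WT 4, 1 without DBA_2J and 2 without 129S2_SvPasCrl. WT 2 had the lowest Adipoq and Cidec of the WT libraries, near the strains, and also the lowest Cyp4a14, Cyp4a10, Creb3l3 and Fabp1 of the WT libraries. Other lipid genes did not follow this order. WT 3 was the lowest WT library for Ehhadh, Pdk4 and Angptl4. WT 4, which had the highest Adipoq and Cidec, was the lowest for Plin2 and Acaa1b. The part of fat tissue in the lipid results was not tested beyond these values.

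Other shared lower genes encode secreted proteins, proteases and detoxifying enzymes. Azgp1, a secreted zinc-binding glycoprotein named here after its values were seen, had the largest log2 difference of the class in DBA_2J (−7.73), at 107, 181, 179 and 139 CPM in WT and 0.645 CPM in DBA_2J, while 129S2_SvPasCrl, at 62.7 CPM, was much nearer to WT (−1.24), and the pair did not pass the test (adjusted p = 0.209 in edgeR). Tissue kallikrein Klk1 (chr7:44225437-44229617, mm10), a protease of the connecting tubule that releases kinins, read 2175, 2109, 1981 and 2018 CPM in WT, 365 CPM in DBA_2J and 690.4 CPM in 129S2_SvPasCrl. The WT libraries lay close together and far above both strains, with a log2 fold change of −1.97 ± 0.24 (SE, edgeR adjusted p = 0.00201), and DBA_2J was 5.68-fold and 129S2_SvPasCrl 3.0-fold under the WT mean. Its copies Klk1b5 and Klk1b11 were lower in both strains too, and reads of such near-identical copies may be split among them. Serpina1d (chr12:103763587-103773633, mm10), a copy of the α1-antitrypsin gene, read 82.9, 85.0, 94.6 and 77.2 CPM in WT, 1.68 CPM in DBA_2J and 1.85 CPM in 129S2_SvPasCrl. The pair differed from WT by −5.59 ± 0.14 (SE, edgeR adjusted p = 1.09e-06) on the log2 scale. The 5 genes Serpina1a to Serpina1e of this cluster were past the rule downwards in both strains. Serpina1a, the most abundant, read 57.6, 81.4, 174 and 142 CPM in WT, 6.24 CPM in DBA_2J and 4.58 CPM in 129S2_SvPasCrl. Serpina1f was also tested and was not among the shared lower genes. Its call in the pair test was lost without WT 1, WT 3 or WT 4 (adjusted p = 0.0581 to 0.0698 in edgeR). The number of Serpina1 copies is known to vary among strains, and their counts are uncertain because the copies are nearly identical. Cpn1, carboxypeptidase N, which trims kinins and complement fragments, read 66.0, 58.2, 95.4 and 92.1 CPM in WT, 2.28 CPM in DBA_2J and 2.94 CPM in 129S2_SvPasCrl. The log2 fold change was −4.90 ± 0.28 (SE, edgeR adjusted p = 9.71e-05). Apoa2, an apolipoprotein of high-density lipoprotein, read 7.19, 8.27, 7.14 and 5.48 CPM in WT, 0.387 CPM in DBA_2J and 0.253 CPM in 129S2_SvPasCrl. Its log2 fold change was −4.44 ± 0.30 (SE, edgeR adjusted p = 0.00022). Trim12a, of a family of antiviral ubiquitin ligases, read 5.23, 5.49, 5.59 and 7.63 CPM in WT, 0.129 CPM in DBA_2J and 0.136 CPM in 129S2_SvPasCrl, −5.46 ± 0.32 (SE, edgeR adjusted p = 9.71e-05) on the log2 scale.

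Among enzymes, the cytochrome Cyp2d9 read 739, 781, 694 and 571 CPM in WT, 221 CPM in DBA_2J and 261 CPM in 129S2_SvPasCrl. The microsomal glutathione transferase Mgst1 read 122, 117, 106 and 90.4 CPM in WT, 26.2 CPM in DBA_2J and 26.9 CPM in 129S2_SvPasCrl. Cyp2d12, a neighbour of Cyp2d9, read 332, 233, 529 and 616 CPM in WT, 23.1 CPM in DBA_2J and 44.7 CPM in 129S2_SvPasCrl, far more variable among the WT libraries and still without overlap. Of the 38 tested cytochromes P450, 13 fell in the pair test, where 8.92% of all genes fell, with 9 or 10 lower calls when any 1 WT library was left out. The 4 that rose are near the share of all genes that rose (11.6%). The export pump Abcc2 read 515, 449.7, 515 and 389 CPM in WT, 166 CPM in DBA_2J and 213 CPM in 129S2_SvPasCrl. In the pair, its log2 fold change was −1.30 ± 0.16 (SE, edgeR adjusted p = 0.00207). Ndrg1, a gene induced by low oxygen, had the largest CPM difference of the shared lower class, with 5174, 5881, 3572 and 2556 CPM in WT, 1700.4 CPM in DBA_2J and 1077 CPM in 129S2_SvPasCrl. The pair differed from WT by −1.63 ± 0.35 (SE, edgeR adjusted p = 0.0171) on the log2 scale. The ribosomal protein gene Rplp0 read 596, 629.6, 643 and 623 CPM in WT, 293 CPM in DBA_2J and 292 CPM in 129S2_SvPasCrl. The log2 fold change was −1.09 ± 0.08 (SE, edgeR adjusted p = 0.000282). Of the 21 ribosomal protein genes 7 fell, where 8.92% of all genes did, and 2 when any 1 WT library was left out. Their medians were −0.23 and −0.16, and their summed level was 6452 to 6909 CPM in WT, 5397 CPM in DBA_2J and 5714 CPM in 129S2_SvPasCrl.

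Among the shared higher genes, Angptl7 (chr4:148495280-148500462, mm10), a secreted angiopoietin-like protein, stood far from WT in both strains. It read 5.74, 5.90, 4.45 and 6.82 CPM in WT, 453 CPM in DBA_2J and 427 CPM in 129S2_SvPasCrl, which is 79.1-fold and 74.5-fold above the WT mean, with a log2 fold change of 6.27 ± 0.15 (SE, edgeR adjusted p = 1.09e-06). Col6a6 (chr9:105689417-105828085, mm10), a chain of type VI collagen, read 0.704, 0.905, 1.14 and 1.03 CPM in WT, 71.5 CPM in DBA_2J and 63.2 CPM in 129S2_SvPasCrl. In WT it lay near 1 CPM, while both strains held it at a clear level, with a log2 fold change of 6.12 ± 0.15 (SE, edgeR adjusted p = 1.09e-06). Col3a1, the type III collagen of fibroblasts, was 2.27-fold and 2.46-fold higher, while 1 of the 16 smooth muscle and fibroblast markers rose and 6 fell in the pair test (of all genes 11.6% and 8.92%), with medians of −0.24 and −0.21. The 6 lower calls became 3 without WT 1, WT 3 or DBA_2J, and 5 markers rose without DBA_2J. Eddm3b, a small ribonuclease-like protein, read 27.1 CPM in DBA_2J, 12.2 CPM in 129S2_SvPasCrl and 0.190 to 0.374 CPM in WT. The zinc finger gene Zfp365 read 9.65 CPM in DBA_2J, 6.10 CPM in 129S2_SvPasCrl and 0.0936 to 0.201 CPM in WT. Their log2 fold changes were 6.29 ± 0.38 (SE, edgeR adjusted p = 0.000129) and 5.77 ± 0.32 (SE, edgeR adjusted p = 8.22e-05). Greb1, known as an oestrogen-responsive gene, read 0.252, 0.406, 0.814 and 0.592 CPM in WT, 11.6 CPM in DBA_2J and 13.7 CPM in 129S2_SvPasCrl. Its log2 fold change was 4.54 ± 0.32 (SE, edgeR adjusted p = 0.000239). Rgs14, a regulator of G proteins, was 20.2-fold higher in DBA_2J and 8.18-fold higher in 129S2_SvPasCrl. The sorting receptor gene Sorcs1 read 17.8 CPM in DBA_2J, 7.23 CPM in 129S2_SvPasCrl and 0.343 to 1.53 CPM in WT. The long non-coding RNA Sox2ot read 8.45 CPM in DBA_2J, 15.0 CPM in 129S2_SvPasCrl and 0.151 to 1.09 CPM in WT.

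By CPM, the largest shared differences upwards were in metabolic enzymes and membrane proteins. Acy3, which removes acetyl groups from mercapturic acids, read 1699, 1964, 1859.6 and 1488 CPM in WT, 4612 CPM in DBA_2J and 3674 CPM in 129S2_SvPasCrl. In the pair, its log2 fold change was 1.24 ± 0.13 (SE, edgeR adjusted p = 0.00133). Mpv17l, a membrane protein of peroxisomes and mitochondria, read 440.3, 406, 392 and 518 CPM in WT, 1527 CPM in DBA_2J and 1239.8 CPM in 129S2_SvPasCrl. The groups did not overlap in either gene, and the log2 fold change of Mpv17l was 1.66 ± 0.13 (SE, edgeR adjusted p = 0.000389). Hsd17b11, a steroid and lipid droplet dehydrogenase, read 393, 436, 384 and 427 CPM in WT, 1497 CPM in DBA_2J and 826 CPM in 129S2_SvPasCrl, with DBA_2J well above 129S2_SvPasCrl. Gatm, the first enzyme of creatine synthesis, was 2.08-fold and 2.69-fold higher, with a log2 fold change of 1.25 ± 0.12 (SE, edgeR adjusted p = 0.000935). The organic anion transporter Slc22a19 read 63.2, 59.2, 60.6 and 71.1 CPM in WT, 286 CPM in DBA_2J and 252 CPM in 129S2_SvPasCrl. Its relative Slc22a26 read 6.99, 3.84, 6.54 and 11.6 CPM in WT, 33.2 CPM in DBA_2J and 40.1 CPM in 129S2_SvPasCrl. Their log2 fold changes were 2.08 ± 0.10 (SE, edgeR adjusted p = 4.12e-05) and 2.34 ± 0.33 (SE, edgeR adjusted p = 0.00378). The lactate transporter Slc5a12 read 239, 252, 177 and 232 CPM in WT, 449 CPM in DBA_2J and 514 CPM in 129S2_SvPasCrl.

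Genes of the renin-angiotensin system were partly shared and partly not. Renin (Ren1) read 51.3, 35.9, 27.5 and 56.0 CPM in WT, 121 CPM in DBA_2J and 95.7 CPM in 129S2_SvPasCrl. The pair differed from WT by 1.35 ± 0.26 (SE, edgeR adjusted p = 0.0111) on the log2 scale. DBA/2 and 129 are known to carry an extra renin gene, Ren2, that C57BL/6 lacks; in the authors' annotation an entry for Ren2 shares 1413 exon bases with Ren1, so reads of the 2 genes cannot be told apart. Mas1, a receptor for a shortened, vasodilating angiotensin, read 0.755, 0.562, 1.30 and 0.498 CPM in WT, 8.23 CPM in DBA_2J and 2.47 CPM in 129S2_SvPasCrl, a log2 fold change of 2.76 ± 0.52 (SE, edgeR adjusted p = 0.0104) that was lost without DBA_2J (adjusted p = 0.0551 in edgeR). Agt, which encodes the substrate of renin, was lower in DBA_2J alone by the rule, at 31.9 CPM in DBA_2J, 82.1 CPM in 129S2_SvPasCrl and 93.8 to 107 CPM in WT. Enpep, which trims angiotensin further, was higher in 129S2_SvPasCrl alone by the rule, at 114 CPM in DBA_2J, 305 CPM in 129S2_SvPasCrl and 89.6 to 122 CPM in WT. Of the 13 tested members, 6 rose in the pair test, where 11.6% of all genes rose, and 4 to 8 rose when 1 library was left out.

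Of the tubular injury markers, Havcr1 (KIM-1), a receptor that injured proximal tubule displays, read 1.31, 1.31, 2.09 and 2.40 CPM in WT, 4.07 CPM in DBA_2J and 61.9 CPM in 129S2_SvPasCrl. The 129S2_SvPasCrl library was 34.8-fold and the DBA_2J library 2.29-fold above the WT mean, and the pair's log2 fold change was 4.19 ± 0.83 (SE, edgeR adjusted p = 0.0125). No other member of the list rose in the pair test. The chaperone Clu read 253, 234, 379 and 433 CPM in WT, 130.3 CPM in DBA_2J and 141 CPM in 129S2_SvPasCrl. The cell cycle inhibitor Cdkn1a read 20.6, 17.4, 10.9 and 12.8 CPM in WT, 6.82 CPM in DBA_2J and 4.40 CPM in 129S2_SvPasCrl. Both genes fell in the pair, with log2 fold changes of −1.26 ± 0.26 (SE, edgeR adjusted p = 0.0137) and −1.45 ± 0.30 (SE, edgeR adjusted p = 0.0145). Lcn2, a secreted injury marker, read 2.16, 1.81, 3.99 and 5.45 CPM in WT, 1.27 CPM in DBA_2J and 2.63 CPM in 129S2_SvPasCrl. Of 27 tested members 1 rose and 6 fell, where 11.6% and 8.92% of all genes did so, with medians of −0.28 in DBA_2J and −0.33 in 129S2_SvPasCrl. The list had 3 lower calls without WT 3 and 4 without WT 1 or WT 4.

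The next question was where the strains parted from each other. These differences rest on 1 library per strain and are given by size. An edgeR fit of 3 groups, in which each lone library is assumed to vary like WT, called 397 genes higher and 332 lower in DBA_2J than in 129S2_SvPasCrl. Alox15 (chr11:70344147-70352031, mm10), a lipoxygenase that oxidises arachidonic acid, read 0.805, 0.499, 0.271 and 0.561 CPM in WT, 359.7 CPM in DBA_2J and 0.195 CPM in 129S2_SvPasCrl. DBA_2J was 673-fold above the WT mean, while 129S2_SvPasCrl lay under the lowest WT library. Tm4sf5, a membrane protein gene near Alox15 on chromosome 11, read 0.252, 0.0312, 0.109 and 0.125 CPM in WT, 30.4 CPM in DBA_2J and 0.0195 CPM in 129S2_SvPasCrl, again with DBA_2J alone at a clear level. H2-Ea-ps (chr17:34342212-34344645, mm10), the MHC class II α chain of the E molecule, had 0 counts in the 4 WT libraries and in 129S2_SvPasCrl, and 1120 counts (20.6 CPM) in DBA_2J. Against the floor of 3 counts over the WT group, that is at least 831-fold higher. The b haplotype is known to lack a working copy of this gene, and the annotation of the C57BL/6 genome names it a pseudogene. The complement gene C4a, known as sex-limited protein, read 2.72, 3.87, 4.50 and 6.48 CPM in WT, 72.7 CPM in DBA_2J and 8.34 CPM in 129S2_SvPasCrl. Its near copy C4b read 11.3, 11.7, 12.7 and 10.6 CPM in WT, 46.7 CPM in DBA_2J and 6.16 CPM in 129S2_SvPasCrl. The class I gene H2-Q1 read 14.2 CPM in DBA_2J, 1.03 CPM in 129S2_SvPasCrl and 0.570 to 1.06 CPM in WT. Its neighbour H2-Q2 read 7.88 CPM in DBA_2J, 0.390 CPM in 129S2_SvPasCrl and 0.499 to 1.33 CPM in WT. Of 34 tested class I genes, 9 were past the rule upwards and 3 downwards in DBA_2J (of all genes 4.38% and 5.12%). Their medians were −0.21 in DBA_2J and −0.26 in 129S2_SvPasCrl. Their summed level was 1619 to 1674 CPM in WT, 1437 CPM in DBA_2J and 1440 CPM in 129S2_SvPasCrl. Of 30 tested complement genes, 3 were past the rule upwards and 3 downwards in DBA_2J, with a median of −0.52. Mybpc3, a myosin-binding protein known from heart, read 10.4 CPM in DBA_2J, 0.214 CPM in 129S2_SvPasCrl and 0 to 0.125 CPM in WT. The neuronal gene Pianp read 8.66 CPM in DBA_2J, 0.117 CPM in 129S2_SvPasCrl and 0.187 to 0.353 CPM in WT. Stab2, a scavenger receptor for hyaluronan, read 1.31, 2.03, 2.39 and 1.28 CPM in WT, 33.6 CPM in DBA_2J and 3.10 CPM in 129S2_SvPasCrl. Class II genes of antigen presentation did not follow H2-Ea-ps: H2-Ab1 read 50, 53.5, 54.5 and 45.3 CPM in WT, 33.6 CPM in DBA_2J and 114 CPM in 129S2_SvPasCrl, lowest in DBA_2J and highest in 129S2_SvPasCrl.

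Of genes known to respond to androgens in kidney, more were past the rule upwards in DBA_2J than in 129S2_SvPasCrl, a difference that was not tested. Of 31 tested members, 16 were past the rule upwards and 2 downwards in DBA_2J, against 3 upwards and 4 downwards in 129S2_SvPasCrl, with medians of 1.02 and 0.21. Over all genes these shares were 4.38% and 5.12% in DBA_2J and 3.25% and 3.64% in 129S2_SvPasCrl. Between the strains, 11 were at least 2-fold higher and 1 at least 2-fold lower in DBA_2J, beside 2.59% and 2.98% of all genes. Genes listed as female-biased in kidney went both ways. Of 18 tested, 7 were past it upwards and 3 downwards in DBA_2J, and 5 upwards and 3 downwards in 129S2_SvPasCrl. Their medians were 0.12 in DBA_2J and 0.24 in 129S2_SvPasCrl. The summed level of this list was 4565 to 5521 CPM in WT, 3141 CPM in DBA_2J and 4793 CPM in 129S2_SvPasCrl. Its members Cyp4a14 and Cyp2d12 were lower in both strains, Slc22a19 was higher in both, and Cyp2b10 lay on opposite sides of WT. In the pair test 2 members of the female-biased list rose and 3 fell, where 11.6% and 8.92% of all genes did so. Odc1, the first enzyme of polyamine synthesis, read 361, 365, 377 and 583 CPM in WT, 1913 CPM in DBA_2J and 642 CPM in 129S2_SvPasCrl, and WT 4 stood apart from the other WT libraries towards 129S2_SvPasCrl. The lysosomal enzyme Gusb, β-glucuronidase, read 61.7, 83.4, 45.5 and 44.6 CPM in WT, 231 CPM in DBA_2J and 43.7 CPM in 129S2_SvPasCrl. The transporter Slco1a1 read 351, 450.4, 266 and 309 CPM in WT, 1485 CPM in DBA_2J and 512 CPM in 129S2_SvPasCrl. The steroid reductase gene Srd5a2 read 3.07, 6.90, 3.26 and 2.71 CPM in WT, 20.2 CPM in DBA_2J and 3.45 CPM in 129S2_SvPasCrl. For each of these, DBA_2J stood at 3.93-fold to 5.07-fold the WT mean, and 129S2_SvPasCrl stayed within 2-fold of it. Cyp4a12a read 346, 324, 247 and 295 CPM in WT, 1292 CPM in DBA_2J and 637 CPM in 129S2_SvPasCrl. Cyp2j13 read 202, 239, 212 and 328 CPM in WT, 762 CPM in DBA_2J and 542 CPM in 129S2_SvPasCrl, and both of these genes were higher in both strains. Kap, an abundant androgen-regulated transcript of mouse kidney, read 30537 CPM in DBA_2J, 24663 CPM in 129S2_SvPasCrl and 23733 to 25872 CPM in WT. Further members of the androgen list, with values given below, did not all follow. Gsta2 was lower in DBA_2J alone by the rule, and Ugt2b37 was higher in both strains. Ugt2b38 and Ugt2b5 were higher in DBA_2J and lower in 129S2_SvPasCrl. In the pair test 11 of the 31 androgen list members rose and 4 fell, where 11.6% and 8.92% of all genes did so. With 1 WT library left out, 7 to 10 rose, and the count also changed when 1 strain library was left out. Outside this list, Adh1, alcohol dehydrogenase, was high in DBA_2J, at 1048 CPM in DBA_2J, 438 CPM in 129S2_SvPasCrl and 334 to 514 CPM in WT. Hsd11b1, which regenerates active glucocorticoid, read 683 CPM in DBA_2J, 177 CPM in 129S2_SvPasCrl and 86.3 to 261 CPM in WT.

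Downwards, DBA_2J stood apart most in Gcnt1 (chr19:17326141-17372844, mm10), a glycosyltransferase that branches O-linked glycans. It read 474, 509, 508 and 498 CPM in WT, 2.60 CPM in DBA_2J and 692 CPM in 129S2_SvPasCrl. DBA_2J was 191-fold under WT libraries that lay within a narrow range, and 129S2_SvPasCrl was above them. Gsta2, a glutathione transferase, read 101, 114, 121 and 87.1 CPM in WT, 3.61 CPM in DBA_2J and 87.4 CPM in 129S2_SvPasCrl. Its near-identical copy Gsta1 read 1.44 CPM in DBA_2J, 20.5 CPM in 129S2_SvPasCrl and 18.0 to 25.6 CPM in WT. Of the related family members, Gsta3 was lower in both strains (4.37-fold in DBA_2J and 2.20-fold in 129S2_SvPasCrl). Ggt6, of the γ-glutamyltransferase family, read 26.9, 24.1, 26.7 and 15.9 CPM in WT, 0.442 CPM in DBA_2J and 15.5 CPM in 129S2_SvPasCrl. Mndal, an interferon-inducible DNA sensor of the HIN-200 family, read 6.04, 6.21, 7.0 and 5.70 CPM in WT, 0.332 CPM in DBA_2J and 6.84 CPM in 129S2_SvPasCrl. Pck1, the gluconeogenic enzyme of proximal tubule and the largest CPM difference of this class, read 8147, 5985, 6952 and 6465 CPM in WT, 1611 CPM in DBA_2J and 3713 CPM in 129S2_SvPasCrl, so 129S2_SvPasCrl was also under the lowest WT library, by less. Plcl2, a phospholipase C-like protein, read 1.86 CPM in DBA_2J, 13.0 CPM in 129S2_SvPasCrl and 14.1 to 20.8 CPM in WT. Tceanc2 read 1.46 CPM in DBA_2J, 13.4 CPM in 129S2_SvPasCrl and 20.1 to 24.7 CPM in WT. The nuclear RNA Neat1 read 656 CPM in DBA_2J, 1840.5 CPM in 129S2_SvPasCrl and 1606 to 2292 CPM in WT. The organic anion transporter Slc22a8 read 333 CPM in DBA_2J, 742 CPM in 129S2_SvPasCrl and 848 to 941 CPM in WT.

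In 129S2_SvPasCrl alone, Klk1b22 (chr7:44112683-44116876, mm10), a kallikrein of the same cluster as Klk1, read 0.503, 0.874, 0.543 and 0.685 CPM in WT, 0.0737 CPM in DBA_2J and 28.3 CPM in 129S2_SvPasCrl, 43.4-fold above the WT mean while Klk1 itself was below it. Ifi44l, an interferon-induced gene, read 0.0503, 0, 0.109 and 0.0623 CPM in WT, 0.276 CPM in DBA_2J and 5.51 CPM in 129S2_SvPasCrl. The interferon-induced GTPase Gbp2b read 0.442 CPM in DBA_2J, 3.14 CPM in 129S2_SvPasCrl and 0.0503 to 0.218 CPM in WT. Of the interferon response list's 33 tested members, 2 were past the rule upwards and 3 downwards in 129S2_SvPasCrl (of all genes 3.25% and 3.64%), with a median of −0.23. Coch, a secreted matrix protein, read 2.31, 2.09, 1.66 and 1.37 CPM in WT, 1.88 CPM in DBA_2J and 18.3 CPM in 129S2_SvPasCrl. Cacna2d2, a calcium channel subunit, read 0.201, 0.562, 0.461 and 0.218 CPM in WT, 0.203 CPM in DBA_2J and 6.27 CPM in 129S2_SvPasCrl. The methyltransferase-like gene Mettl7a3 read 36.9 CPM in DBA_2J, 246 CPM in 129S2_SvPasCrl and 39.1 to 48.3 CPM in WT. Its near copy Mettl7a2 read 126 CPM in DBA_2J, 508 CPM in 129S2_SvPasCrl and 149.6 to 171 CPM in WT. The peroxisomal hydroxy acid oxidase Hao2 read 173, 237, 427 and 344 CPM in WT, 344 CPM in DBA_2J and 749 CPM in 129S2_SvPasCrl, with a wide spread in WT. The cytochrome Cyp2a5 read 285 CPM in DBA_2J, 754 CPM in 129S2_SvPasCrl and 295 to 474 CPM in WT. The serine protease Tmprss4 read 0.847 CPM in DBA_2J, 8.63 CPM in 129S2_SvPasCrl and 0.780 to 1.28 CPM in WT.

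Downwards, the 129S2_SvPasCrl library stood apart in Etohi1, a zinc finger gene, at 14.0 CPM in DBA_2J, 0.214 CPM in 129S2_SvPasCrl and 8.19 to 10.2 CPM in WT. Camk2b, a calcium-dependent kinase, read 8.93 CPM in DBA_2J, 0.175 CPM in 129S2_SvPasCrl and 6.00 to 7.75 CPM in WT. Sugct (chr13:16857475-17694765, mm10), which attaches coenzyme A to glutarate, read 177, 182, 162 and 156 CPM in WT, 151 CPM in DBA_2J and 12.4 CPM in 129S2_SvPasCrl. DBA_2J lay just under the WT libraries and 129S2_SvPasCrl 13.6-fold under their mean. The glutathione peroxidase Gpx6 read 13.1 CPM in DBA_2J, 0.760 CPM in 129S2_SvPasCrl and 17.6 to 24 CPM in WT. The deaminase family gene Apobec2 read 5.47 CPM in DBA_2J, 0.234 CPM in 129S2_SvPasCrl and 5.12 to 7.35 CPM in WT. The inflammasome gene Nlrc4 read 8.12 CPM in DBA_2J, 0.195 CPM in 129S2_SvPasCrl and 4.24 to 6.48 CPM in WT. By CPM, the largest drop was in Akr1c21, a hydroxysteroid dehydrogenase, at 731, 921, 1073 and 911 CPM in WT, 832 CPM in DBA_2J and 298 CPM in 129S2_SvPasCrl. Serinc3, a membrane protein whose exons share 146 bases with another gene, read 745 CPM in DBA_2J, 233 CPM in 129S2_SvPasCrl and 519.8 to 619 CPM in WT. The amino acid transporter Slc7a8 read 143 CPM in DBA_2J, 63.7 CPM in 129S2_SvPasCrl and 139 to 178 CPM in WT. Sprr2a1 and Sprr2a2, whose exons share 7094 bases and whose counts are identical, read 9.76 CPM in DBA_2J, 0.662 CPM in 129S2_SvPasCrl and 7.40 to 12.6 CPM in WT.

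In 29 genes the strains lay on opposite sides of WT. Ugt2b38 (chr5:87409940-87424203, mm10), a glucuronosyltransferase, read 532, 619.6, 567 and 680.4 CPM in WT, 1869 CPM in DBA_2J and 2.24 CPM in 129S2_SvPasCrl. DBA_2J was 3.12-fold above and 129S2_SvPasCrl 268-fold below the WT mean. Its relative Ugt2b5 read 53.0, 58.3, 48.6 and 62.8 CPM in WT, 235 CPM in DBA_2J and 7.85 CPM in 129S2_SvPasCrl, in the same order, while Ugt2b37 was higher in both strains at 401 CPM in DBA_2J, 143 CPM in 129S2_SvPasCrl and 58.2 to 86.7 CPM in WT. Copies of this family are similar in sequence, so reads may be split among them. Hdc (chr2:126593660-126618678, mm10), which makes histamine, read 15.4, 14.6, 13.9 and 17.6 CPM in WT, 399 CPM in DBA_2J and 3.49 CPM in 129S2_SvPasCrl, 25.9-fold above WT in DBA_2J and 4.41-fold below it in 129S2_SvPasCrl. In the other direction, Ttr, the plasma carrier of thyroxine and retinol, read 79.1, 128, 52.9 and 35.2 CPM in WT, 1.92 CPM in DBA_2J and 212 CPM in 129S2_SvPasCrl, against a wide WT range. Pik3c2g, a lipid kinase, read 3.67, 4.24, 5.53 and 7.04 CPM in WT, 1.09 CPM in DBA_2J and 36.1 CPM in 129S2_SvPasCrl. Pvalb, a calcium-binding protein of the distal convoluted tubule, read 21.6, 24.5, 16.4 and 25.8 CPM in WT, 10.5 CPM in DBA_2J and 61.4 CPM in 129S2_SvPasCrl. Slc12a3, the salt transporter that defines the same tubule, was lower in both strains at 658 CPM in DBA_2J, 485 CPM in 129S2_SvPasCrl and 958 to 1247 CPM in WT, 129S2_SvPasCrl alone past the rule. Snx31, a sorting nexin, read 54.6 CPM in DBA_2J, 1.64 CPM in 129S2_SvPasCrl and 6.88 to 11.7 CPM in WT. Ctxn3 read 16.3 CPM in DBA_2J, 0.701 CPM in 129S2_SvPasCrl and 3.74 to 13.2 CPM in WT. The cytochrome Cyp2b10 read 8.92 CPM in DBA_2J, 0 CPM in 129S2_SvPasCrl and 0.405 to 4.56 CPM in WT. Cndp2, a dipeptidase, read 677, 767, 738 and 674 CPM in WT, 1794 CPM in DBA_2J and 351 CPM in 129S2_SvPasCrl.

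**Figure D3:**
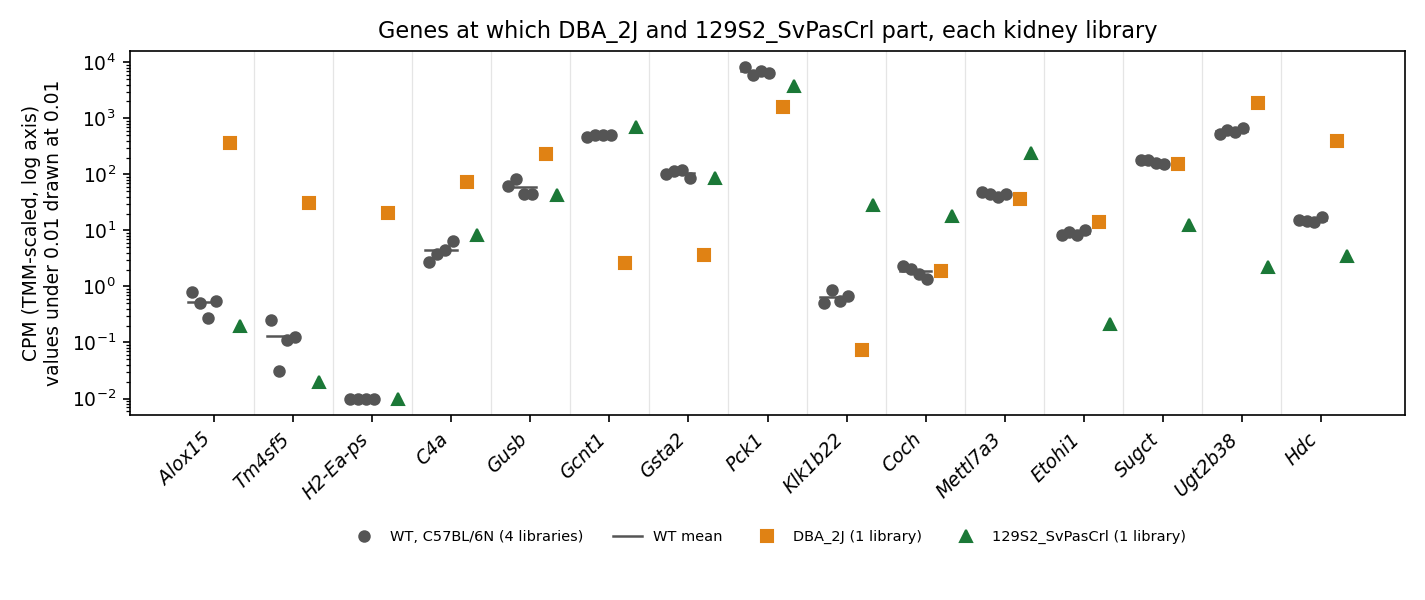
CPM on a log axis in each library for 15 genes at which the strains part, with WT libraries as circles, DBA_2J as a square and 129S2_SvPasCrl as a triangle. Alox15 to Gusb are high in DBA_2J, Gcnt1 to Pck1 low in DBA_2J, Klk1b22 to Mettl7a3 high and Etohi1 and Sugct low in 129S2_SvPasCrl, and Ugt2b38 and Hdc lie on opposite sides of WT. For H2-Ea-ps the 4 WT libraries and 129S2_SvPasCrl have 0 counts and are drawn at the lower limit.

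Clock genes differed both between strains and among the WT libraries. Arntl, the activator at the core of the clock, read 3.65 CPM in DBA_2J, 1.71 CPM in 129S2_SvPasCrl and 6.04 to 13.9 CPM in WT, a log2 fold change of −1.95 ± 0.41 (SE, edgeR adjusted p = 0.0151). Dbp, an output factor that peaks at another time of day, read 40.0, 30.1, 63.1 and 85.8 CPM in WT, 91.6 CPM in DBA_2J and 226 CPM in 129S2_SvPasCrl. The clock repressor Ciart read 4.08, 1.97, 4.15 and 7.26 CPM in WT, 5.86 CPM in DBA_2J and 28.4 CPM in 129S2_SvPasCrl. Per2, a repressor of Arntl's partner complex, read 21.7, 17.7, 30.8 and 55.8 CPM in WT, 62.0 CPM in DBA_2J and 86.4 CPM in 129S2_SvPasCrl and did not pass the pair test, with a log2 fold change of 1.23 ± 0.40 (SE, edgeR adjusted p = 0.0629). WT 4 had the lowest Arntl and the highest Dbp, Ciart and Per2 of the WT libraries, so it lay on the side of the strains in each. Of 18 tested members 5 rose and 1 fell, where 11.6% and 8.92% of all genes did so. With WT 1, WT 2 or WT 3 left out 2 rose, and 6 rose without WT 4. Among the 5 calls, those of Dbp, Per3 and Tef were each lost without WT 1, WT 2 or WT 3 (adjusted p = 0.0509 to 0.113 in edgeR). The calls also changed when 1 strain library was left out. The time of sampling is not in the labels, and its part in these values was not tested.

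Genes of a class often lay beside each other. Of the 189 genes higher in DBA_2J alone, 79 (41.8%) had another gene of that class within 1 Mb, while 19.9% of all tested genes had a gene of that class so near. For the 185 lower genes the shares were 42.2% and 21.3%, for the 117 genes lower in 129S2_SvPasCrl alone 33.9% (of 112 with a position) and 12.7%, and for the 123 higher genes 26.0% and 17.0%. In the shared classes they were 40.4% and 28.3% for the higher and 47.4% and 36.6% for the lower genes. These shares are descriptions without a test, and gene families count as neighbours in them.

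**Figure D4:**
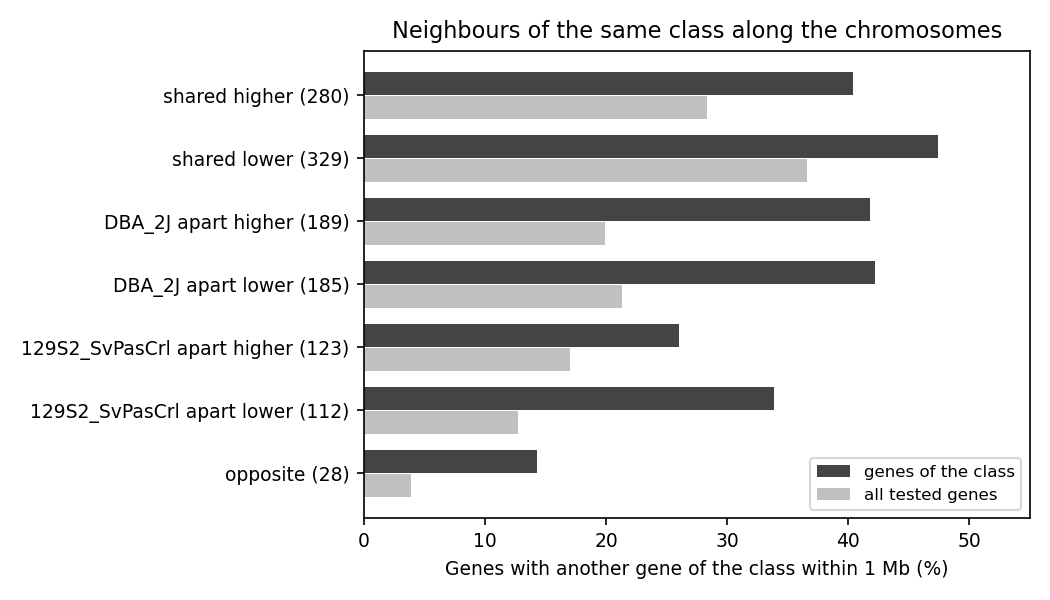
Percent of genes that have another gene of the same class within 1 Mb, for the genes of each class (dark bars, with the number that have a position) and for all tested genes (light bars). The dark bar is the longer one in each class, from 14.3% against 3.87% in the opposite class to 47.4% against 36.6% in the shared lower class.

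The longest run of one class, with steps of at most 1 Mb, was in the MHC region, chr17:34342212-36190151 (mm10), where 15 of 110 tested genes were higher in DBA_2J alone. It runs from H2-Ea-ps through C4b, C4a and the H2-Q genes to H2-T3, and the counts of H2-Q6 and H2-Q8 in it are identical, so they are 1 measurement. In the same region, chr17:34263227-35568945, 5 of 77 tested genes, H2-Ab1 and 3 heat shock genes among them, were higher in 129S2_SvPasCrl alone. On chromosome 12, the 5 genes Serpina1a to Serpina1e formed a shared lower run (chr12:103728156-103956897). Next to it, 4 of 6 tested genes, of the Serpina3 and Serpina5 genes, were higher in DBA_2J alone (chr12:104101113-104254405). Their levels were low: Serpina3a had 0 counts in WT and read 3.21 CPM in DBA_2J, at least 129-fold above the floor. At chr4:115486200-115622366, 4 of 5 tested genes, Cyp4a14, Cyp4a10, Cyp4a31 and Cyp4a32, were lower in both strains, while Cyp4a12a on the same chromosome was higher in both. At chr12:83763634-84059564, Acot1, Acot2 and Acot3 were among 4 shared lower genes of 7 tested. The spans of these runs and of those below reach from the first to the last gene of each run. The shares of tested genes within them are therefore partly built in.

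In DBA_2J alone, a run of 4 HIN-200 genes at chr1:173747294-173942492, Ifi204, Mndal, Mnda and Ifi203, was lower. Ifi202b of the same family went the other way, with 0 counts in WT, 1.86 CPM in DBA_2J and 0.585 CPM in 129S2_SvPasCrl. Also in DBA_2J alone, 4 of 6 tested genes at chr6:141629518-142322981, transporters of the Slco1 family with Slco1a1 the most abundant, were higher. At chr9:78175914-78347145, Gsta1 and Gsta2 were among 4 of 6 genes lower in DBA_2J. In 129S2_SvPasCrl alone, 7 of 9 tested genes at chr2:176708353-178035859 were lower, a cluster of zinc finger genes in which Etohi1 is the only one that is not a predicted model. A shared higher run at chr14:50789249-51146767 held 5 of 16 tested genes, with the ribonuclease genes Ang, Rnase4 and Rnase1 beside Eddm3b.

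Across the 37 gene lists, the medians of DBA_2J lay furthest below WT in the kallikrein (−2.25), PPARα (−1.85) and adipocyte (−1.56) lists. Those of 129S2_SvPasCrl were lowest in the adipocyte (−1.82), PPARα (−1.79) and T and NK cell (−1.70) lists, with the kallikrein list at −1.05. Klk1 made up nearly all of the kallikrein list's summed level (2006 to 2199 CPM in WT), so the kallikrein medians rest on members at low levels. Of its 15 tested members, 3 were past the rule downwards in each strain (of all genes 5.12% in DBA_2J and 3.64% in 129S2_SvPasCrl). The T and NK cell median was −0.87 in DBA_2J, with summed levels of 4.15 to 7.09 CPM in WT, 3.24 CPM in DBA_2J and 1.27 CPM in 129S2_SvPasCrl. Ccl5, a chemokine of T and NK cells, read 0.645 CPM in DBA_2J, 0.214 CPM in 129S2_SvPasCrl and 1.06 to 1.5 CPM in WT. Of 15 tested macrophage markers, 1 rose and 1, the lysozyme gene Lyz2, fell in the pair test (of all genes 11.6% and 8.92%). The macrophage medians were −0.39 in DBA_2J and −0.53 in 129S2_SvPasCrl. Their summed level went the other way, at 140.0 to 154.8 CPM in WT, 166.4 CPM in DBA_2J and 172.5 CPM in 129S2_SvPasCrl. In bulk tissue, fewer cells of a type and less RNA per cell cannot be told apart. Among collecting duct markers, 2 of 14 for principal cells and 5 of 15 for intercalated cells fell in the pair test. In both lists 0 rose (of all genes 8.92% fell and 11.6% rose). With 1 WT library left out, 1 or 2 principal and 3 or 4 intercalated cell markers fell. Their medians were −0.46 and −0.55 in DBA_2J and −0.1 and −0.04 in 129S2_SvPasCrl. Aqp4, a water channel of principal cells, was high in DBA_2J. It read 134 CPM in DBA_2J, 19.5 CPM in 129S2_SvPasCrl and 26.5 to 53.4 CPM in WT. The transcription factor Tfcp2l1 read 331 CPM in DBA_2J, 389 CPM in 129S2_SvPasCrl and 637 to 781 CPM in WT. Lists of the thick ascending limb, the podocyte and the nuclear genes of the respiratory chain had medians between −0.11 and 0.08 in both strains, and the podocyte gene Podxl read 97.6 CPM in DBA_2J, 107 CPM in 129S2_SvPasCrl and 99.2 to 115 CPM in WT. Of the 26 respiratory chain genes, 0 were past the rule in either strain, and 2 rose and 2 fell in the pair test, near the shares of all genes. Their summed level was 13426 to 13950 CPM in WT, 15833 CPM in DBA_2J and 15181 CPM in 129S2_SvPasCrl, so both strains lay above every WT library. Atp5b, a subunit of ATP synthase, read 3872 CPM in DBA_2J, 3814 CPM in 129S2_SvPasCrl and 3059 to 3396 CPM in WT. The medians parted most between the strains in the kallikrein and MHC class II lists (−0.50 in DBA_2J and 0.35 in 129S2_SvPasCrl), the T and NK cell list and the androgen list.

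**Figure D5:**
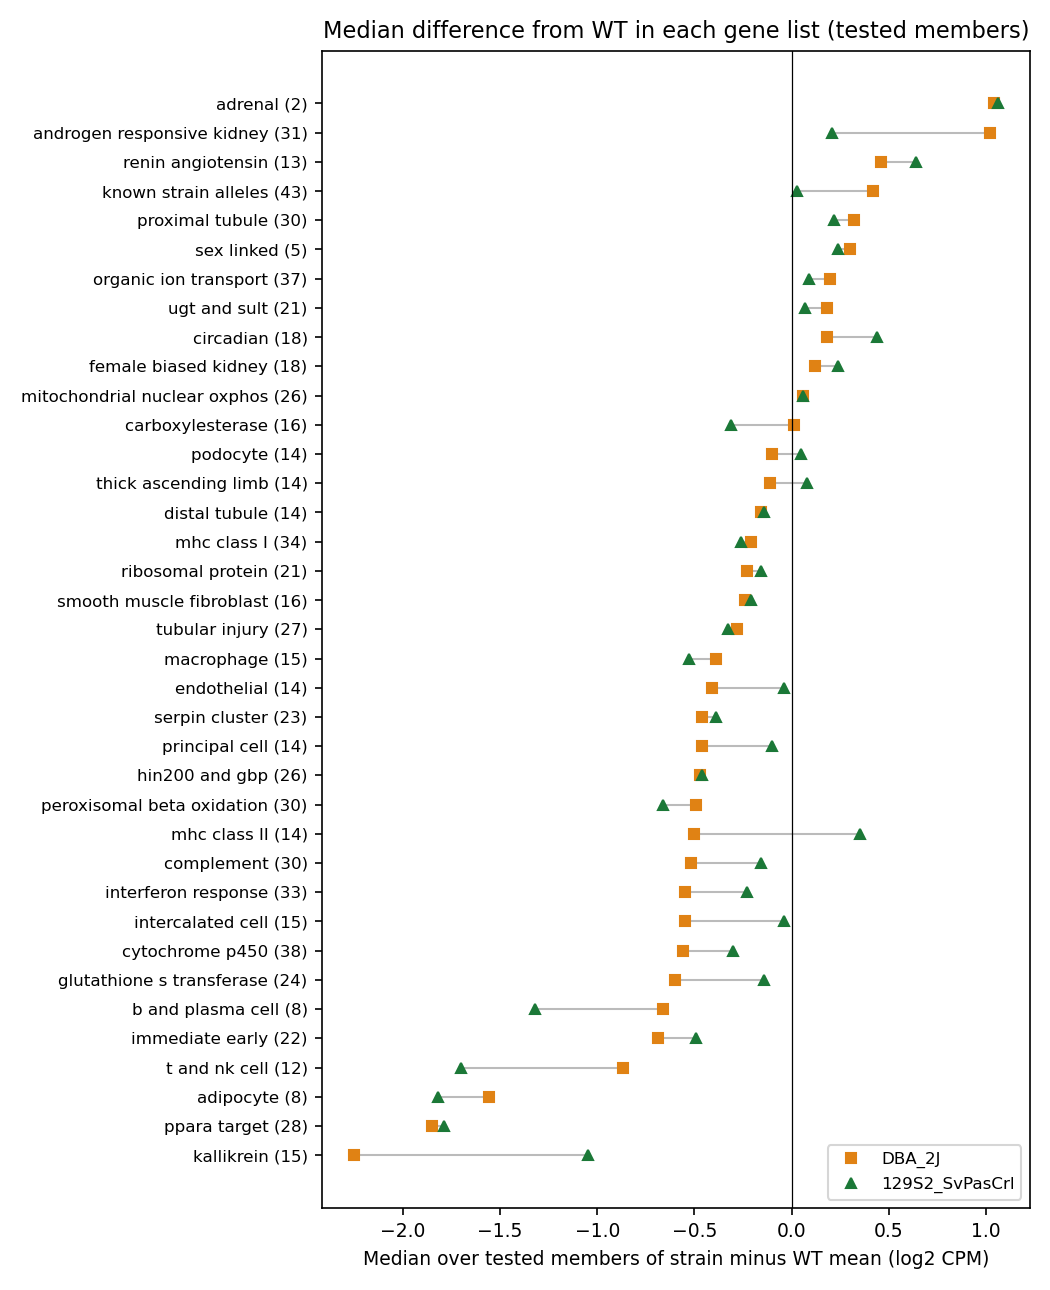
Median log2 CPM difference from the WT mean over the tested members of each of 37 gene lists (number of members in brackets), for DBA_2J (squares) and 129S2_SvPasCrl (triangles), in the order of the DBA_2J median. The lowest DBA_2J medians are those of the kallikrein (−2.25), PPARα (−1.85) and adipocyte (−1.56) lists, and the adrenal list at the top rests on 2 tested genes. The kallikrein medians rest on members at low levels.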

How the data were processed

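RNA with poly(A) tails from whole kidneys was sequenced from single ends. The authors deposited whole-number counts per gene, made per the file headers with featureCounts 1.5.2 over exons of UCSC's mm10 annotation, summed by gene from primary alignments, with reads over several genes given to each and without strand. Per the submitters' processing notes, STAR and edgeR were also used. The authors' joined count table equalled their tables of single libraries, and their normalized matrix was not used because it lacks both strain libraries.

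Genes were kept with edgeR's filterByExpr (16361 of 24062), scaled by TMM and tested in edgeR 4.0.16 (R 4.3.3, limma 3.58.1) with the quasi-likelihood F test, the strain pair against WT, and Benjamini-Hochberg adjustment over all kept genes. The difference between DBA_2J and 129S2_SvPasCrl counts as spread in that test. Single strains were described by the 2-fold rule without a test. The WT titles have 2 forms, with and without a leading E, whose meaning the labels do not give; each form was also used alone. How the animals relate is not in the labels, so p-values measure the spread between these samples. DESeq2 1.42.0, other scalings, filters, thinning and leaving out each library were alternatives. The scripts were tested on simulated data.

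Members, gene lists and the naming rule were chosen with earlier results of these data known. The rule named Ehhadh; in each class the 8 largest log2 differences among genes of at least 5 CPM and the 4 largest CPM differences; and of each list up to 4 members past the 2-fold rule, or up to 2 of the highest where none was. Other list members in the text were chosen after their values were seen. Predicted gene models and Y-linked genes off the lists were counted only. Sequences are from RefSeq's GRCm38.p6. A few genes of the rule and the lists are counted but not reported here by name.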

Additional observations from a re-analysis of the deposited data

Results flagged for a closer look

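In 5 of 131 named genes with a WT mean of at least 1 CPM, 1 of the 4 WT libraries lay far from the other three, where chance alone would pick out about 1 in 20 groups. WT 1 was high for Ehhadh at 3366 CPM, and WT 4 was high for Trim12a at 7.63 CPM and for Odc1 at 583 CPM. WT 2 was low for Sprr2a1 and Sprr2a2 at 7.40 CPM, a single measurement because their counts are identical.

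For 10 named genes the strains lay on opposite sides of all WT libraries. The log2 difference of DBA_2J minus 129S2_SvPasCrl was 9.67 for Ugt2b38, 7.40 for Cyp2b10, 6.82 for Hdc, 5.02 for Snx31, 4.89 for Ugt2b5, 4.44 for Ctxn3 and 2.35 for Cndp2. It was −6.75 for Ttr, −4.99 for Pik3c2g and −2.54 for Pvalb. With 1 library per strain, the difference was not tested for these genes without borrowing the spread of WT.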

How the results depend on the processing

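Of 186 alternatives to the counts of genes, 145 were within 1.5 times the reported count. When 1 library was left out, the pair test called 1826 to 4809 genes, 1008 to 2634 higher and 808 to 2175 lower; the lowest counts came without WT 1 or WT 3 and the highest without 129S2_SvPasCrl. With a log2 difference of 2, DBA_2J against WT gave 392 genes (195 higher, 197 lower), 129S2_SvPasCrl against WT 305 (130, 175), DBA_2J against 129S2_SvPasCrl 247 (141, 106) and both strains 143 (68, 75). With a level of 5 CPM these were 975 (488 lower), 658 (302, 356), 498 (248, 250) and 376 (162, 214). An edgeR fit of 3 groups, in which each lone library is assumed to vary like WT, called 4838 genes in DBA_2J (2734, 2104), 2613 in 129S2_SvPasCrl (1413, 1200) and 1772 in both (999, 773), and between the strains 729 where 911 were past the fold rule. Without DBA_2J, the pair's log2 fold change turned to −1.40 for Alox15 (edgeR adjusted p = 0.278) and −1.32 for Pianp (edgeR adjusted p = 0.334), and without 129S2_SvPasCrl it was 9.47 and 4.84. Of 89 named genes called in the pair test, 31 lost the call without some WT library and 23 without 1 strain library. With the 2 WT libraries whose titles start with E alone, 643 genes were past the rule in both strains (248 higher, 395 lower), and with the other 2 it was 721 (343, 378). Of 222 alternatives to list medians, 216 stayed within the WT spread. The kallikrein medians moved with the prior count, to −1.88 and −0.67 with 5 and to −2.51 and −1.38 with 0.5. No paired analysis was possible because each strain has 1 library and the WT numbers only follow the order of the records. Depth limits genes under about 1 CPM, which is 19.9 counts in WT 1.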
